A study of Carassius auratus with 9 samples.

Results

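The HA diet was compared with the LA basal diet in the muscle transcriptome of Hefang crucian carp. The comparison rests on 6 of the 9 samples of the series, 3 libraries from the LA group and 3 from the HA group, which were chosen by the diet in their sample names. Fish of the LA group received a commercial feed as the basal diet with no added methionine (Met) or lysine (Lys). Fish of the HA group received the same feed with 3.4% Met and 3.4% Lys added, and both groups were fed for 8 weeks. Met and Lys were added together, so the part of each cannot be told apart in this comparison. The remaining 3 libraries, of the MA group (1.7% Met and 3.4% Lys), were not themselves compared. They entered the filter on low counts, the scaling of the libraries, the estimate of spread and the correlations between libraries. The fish had fasted before sampling, and the sources used here do not say which tank or how many fish each library came from.

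Met and Lys are essential amino acids. Met starts translation and, through S-adenosylmethionine, supplies methyl groups, while Lys is built into protein and is broken down in mitochondria. The white muscle of cyprinid fish consists mainly of fast fibres, in which creatine kinase buffers ATP, parvalbumins bind calcium between contractions and myosin and its binding proteins form the thick filament. Muscle protein is broken down by the proteasome after ubiquitin ligases such as F-box only protein 32 (atrogin-1) have marked it, and myostatin restrains muscle growth. The genome of the goldfish lineage is duplicated, so that most of these proteins are encoded by several similar gene copies.

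For this reason each gene was followed both as a single copy and as part of a family, the sum over all genes with the same product name. The deposited table held 76298 genes on the goldfish assembly ASM336829v1, and its named genes formed 15355 families, of which 12112 held at least 2 genes. Total counts ranged from 14516220 to 15839639 in the LA libraries and from 14326677 to 15794880 in the HA libraries. Levels are given as CPM, the read count of a gene relative to the effective size of its library, which TMM sets so that the typical gene is equal between libraries. Creatine kinase M-type, parvalbumin beta and fast skeletal myosin heavy chain together held 28.4% to 32.6% of all counts in the LA libraries and 29.1% to 31.7% in the HA libraries. Genes of the slow and cardiac sarcomere summed to between 6.38 and 21.2 CPM, so that the tissue of all 6 libraries was fast skeletal muscle by these markers.

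The libraries did not sort by diet. Across the 10594 genes that averaged 50 counts or more, LA1 and HA2 had the highest correlation of all 36 pairs of libraries (0.987 on log2 CPM), above the 0.820 to 0.963 found within diets. In both diets, library 3 lay between libraries 1 and 2. LA3 had a value between those of LA1 and LA2 in 69.98% of these genes, and HA3 lay between HA1 and HA2 in 70.1%. Among the MA libraries, which entered the estimate of spread, MA3 lay between MA1 and MA2 in 61.9%. A weighted mixture of LA1 (0.41) and LA2 (0.59) left a median squared deviation from LA3 of 1.70 times the counting error, against 9.94 for LA1 alone and 6.23 for LA2 alone. A mixture of HA1 (0.54) and HA2 (0.45) left 2.05 times the counting error from HA3, against 6.36 for HA1 alone and 10.7 for HA2 alone. The tests below treat the 3 libraries of a diet as independent, and each main count is therefore also given without LA1 and HA2 and with libraries 1 and 2 alone.

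**Figure D1:**
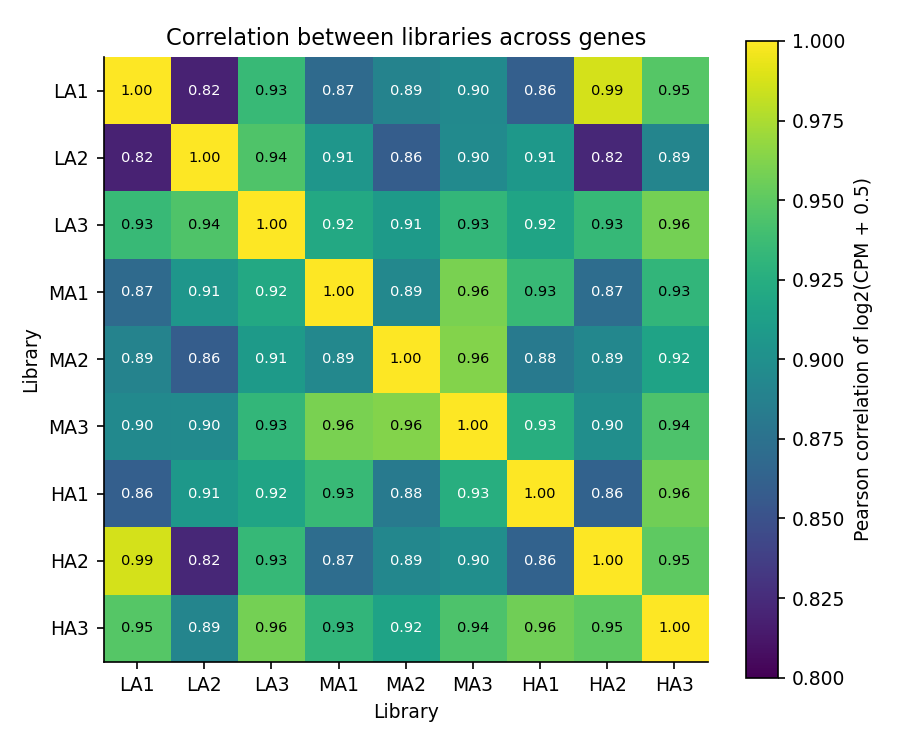
Pearson correlation across genes of log2(CPM + 0.5) between the 9 libraries, with the value in each cell. LA1 and HA2, of different diets, form the most alike pair (0.987), and library 3 of each diet resembles both other libraries of its diet. LA3 is more alike to HA3 (0.958) than to LA1 or LA2.

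Few genes stood out beyond the spread between libraries. No gene passed an adjusted p of 0.05 in the HA group against the LA group (0% of 23946 genes tested, edgeR quasi-likelihood test). At an unadjusted p under 0.05, 656 genes (2.74%) had a higher level in the HA group and 833 (3.48%) a lower level, while DESeq2 called 49 genes and limma on FPKM 0. Of 12178 families, 1 passed (0.00821%), while 354 (2.91%) were higher and 511 (4.2%) lower at an unadjusted p under 0.05. Fold changes were positive in 49.4% of genes and negative in 50.6%, and among families these shares were 48.4% and 51.6%. All 3 HA libraries lay above all 3 LA libraries in 1234 genes (5.15%) and below them in 1192 (4.98%), and in families these shares were 5.24% and 5.21%. No family passed when HA1, HA3, LA2, LA3, MA2 or MA3 was left out. Without LA1, 175 genes and 212 families passed. Without HA2, 10 genes and 3 families passed, and with neither library 219 and 233 did. LA1 and HA2 were singled out as the most alike pair of different diets, a choice that by itself favours more calls. Of the libraries left, LA3 resembles LA2 (correlation 0.945) and HA3 resembles HA1 (0.957), so they may not be independent. LA3 and HA3, of different diets, were at least as alike (0.958). With libraries 1 and 2 alone no gene and no family passed. At an unadjusted p under 0.05 in edgeR were 175 genes (0.714%) and 101 families (0.818%), against 6.22% and 7.1% with all libraries. With fewer libraries, and with the alike LA1 and HA2 in opposite diets, this setting by itself favours fewer calls.

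**Figure D2:**
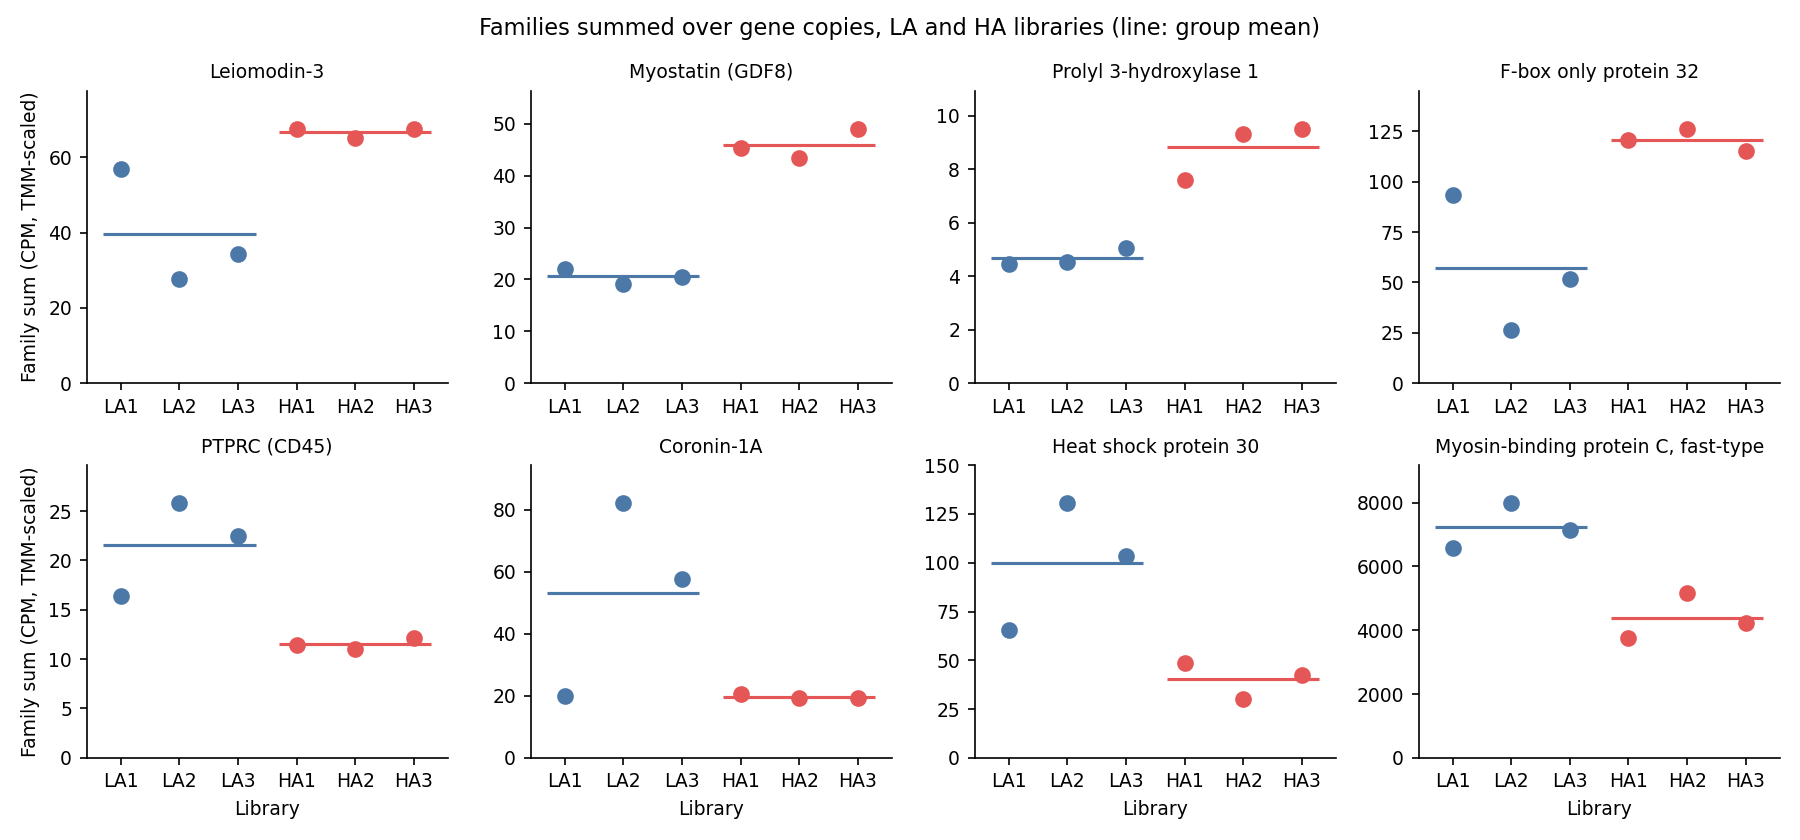
Summed CPM (TMM-scaled, vertical axis from 0) of 8 families in each LA library (blue) and HA library (red), with a line at each group mean. Myostatin, leiomodin-3 and prolyl 3-hydroxylase 1 lie higher in every HA library than in any LA library, PTPRC and heat shock protein 30 lower, while coronin-1A in LA1 (20.05 CPM) lies within the HA group.

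Because LA1 and HA2 were so alike, the families on which they differed were looked at separately. The pairs LA1 with HA2 and LA2 with HA1, which share no library, were chosen after the correlations had been seen, and 5982 families had a mean of at least 5 CPM. In the first pair 23 families differed at least 2-fold (on CPM + 0.5), and in the second pair 452 did. Across families, the log2 ratios of the pairs had a correlation of -0.002 and the same sign in 49.4% of families, a description without a test, since families are not independent replicates. At least 2-fold higher in the HA library of both pairs were 3 families, among them cytosolic carboxypeptidase 4 and the uncharacterized gene LOC113118173. A further 5 were at least 2-fold lower in both, among them heat shock protein 30 and ladderlectin, a plasma lectin known from rainbow trout. Cytosolic carboxypeptidase 4, which trims glutamate from the ends of tubulin and other proteins, was at 0.213, 1.97 and 0.643 CPM in the LA libraries and 28.3, 3.57 and 20.7 CPM in the HA libraries. It reached the mean of 5 CPM only through HA1 and HA3, and both values of the first pair lie under that level. Myostatin was just under the 2-fold line in the first pair, with log2 ratios of 0.96 and 1.22. Some families and single genes differed in the second pair only. Parvalbumin-7 was at 29.6, 31.7 and 33.0 CPM in the LA libraries, and at 239, 29.4 and 155 CPM in HA1, HA2 and HA3. Vascular endothelial growth factor A-A, which drives vessel growth, was followed here as the single gene LOC113059793. This gene was at 4.39, 3.35 and 3.57 CPM in the LA libraries and 66.3, 4.80 and 40.3 CPM in the HA libraries. In both, HA2 was near the LA level.

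**Figure D3:**
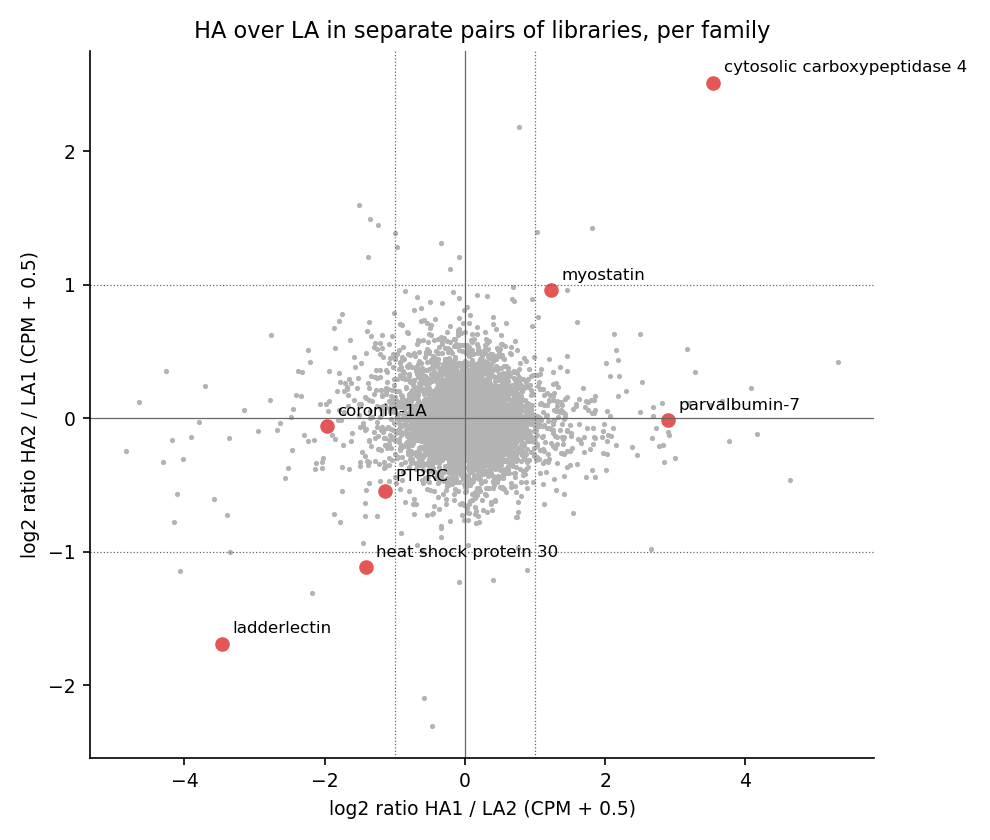
Each grey point is a family of at least 5 CPM, placed by its log2 ratio of HA1 to LA2 (horizontal) and of HA2 to LA1 (vertical), with dotted lines at 2-fold and named families in red. Cytosolic carboxypeptidase 4 (3.54 and 2.51) lies apart in the upper right corner, ladderlectin and heat shock protein 30 in the lower left, and parvalbumin-7 differs in the horizontal direction only.

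Among regulators of muscle mass, myostatin (growth/differentiation factor 8) was at 22.1, 19.2 and 20.5 CPM in the LA libraries and at 45.4, 43.4 and 49.0 CPM in the HA libraries. The groups did not overlap, and the levels within each group were close (log2 fold change 1.16), but the family did not pass over all families (adjusted p = 0.589, edgeR). The sum was steadier than its copies. LOC113108366 on chromosome 9 was at 20.8, 7.75 and 13.7 CPM in the LA libraries and at 27.1, 22.02 and 25.1 CPM in the HA libraries. LOC113053026 on chromosome 34 was at 0.638, 10.3 and 5.93 CPM and at 16.7, 21.0 and 23.2 CPM. In LA1 most of the myostatin reads were thus counted on the first copy and in LA2 most on the second, while the sum differed little. The myogenic transcription factor MyoD (myoblast determination protein 1) was at 29.6, 15.9 and 19.4 CPM in the LA libraries and 46.1, 27.4 and 39.2 CPM in the HA libraries, where LA1 and HA2 overlapped. Pax-3 (LOC113114739), a factor of muscle precursor cells, was low in all libraries, at 1.20, 1.58 and 1.72 CPM and at 0.426, 0.137 and 0.313 CPM. It did not pass (adjusted p = 0.709, edgeR). Pax-7 was at 7.01, 6.37 and 6.43 CPM and at 7.91, 4.94 and 6.20 CPM, with overlap (log2 fold change -0.05). Myogenic factor 5 also overlapped. The list of myogenic factors, which includes myostatin, had 12 tested families. At an unadjusted p under 0.05, 3 were higher (2.91% over all families) and 1 lower (4.2%). The 3 higher ones were myostatin, MyoD and myogenin. Myogenin was at 25.4, 16.7 and 21.2 CPM and at 69.4, 26.5 and 50.4 CPM, without overlap, and did not pass (adjusted p = 0.694, edgeR). The most abundant family, myocyte-specific enhancer factor 2A, overlapped between the groups. Insulin-like growth factor-binding protein 5 (LOC113052969), which binds the growth factor in muscle, was at 12.8, 16.5 and 15.2 CPM in the LA libraries and 8.22, 6.52 and 6.45 CPM in the HA libraries (log2 fold change -1.07, adjusted p = 0.709, edgeR). The families of binding proteins 1 and 3 were higher (log2 fold changes 0.97 and 0.51). Binding protein 1 overlapped between the groups and binding protein 3 did not, and neither passed (adjusted p = 0.632 and 0.669, edgeR).

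Of 62 tested families of the proteasome and atrophy ligases, 49 had a higher and 13 a lower mean level in the HA group (median log2 fold change 0.14, against -0.01 over all families), and 3 were higher and none lower at an unadjusted p under 0.05, against 2.91% and 4.2% over all families. Of their 144 tested copies, 21 did not overlap and were higher, and 1 was lower, against 5.15% and 4.98% over all genes. The summed level was 2808, 2159 and 2342 CPM in the LA libraries and 2624, 2949 and 2635 CPM in the HA libraries, so that LA1 overlapped the HA group by TMM (log2 ratio 0.17). Scaling by total counts moves the median of all tested genes by 0.12 on the log2 scale, and with it the ratio was 0.32 and the sums did not overlap. The 26S proteasome subunit 8 (non-ATPase regulatory subunit 8) was at 26.4, 21.8 and 21.7 CPM in the LA libraries and 32.6, 33.5 and 30.3 CPM in the HA libraries. F-box only protein 32 was at 93.2, 26.3 and 51.9 CPM and at 120.6, 126 and 115 CPM. For both families the groups did not overlap, and neither passed (adjusted p = 0.616 and 0.651, edgeR). The most abundant ligase of the list, TRIM63 (MuRF1), which marks sarcomere proteins, was at 397, 191 and 253 CPM and at 208, 372 and 268 CPM, with overlapping groups. The proteasome activator subunit 4A was at 22.2, 5.19 and 11.9 CPM and at 24.3, 34.7 and 27.2 CPM. The similarly named family, subunit 4B, was kept apart by its name and went the other way with overlap (log2 fold change -0.30). It was at 50.3, 33.9 and 39.2 CPM and at 25.1, 42.2 and 32.6 CPM.

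Of 66 tested genes of the fast sarcomere, 56 had a lower and 10 a higher level (median log2 fold change -0.30), against 50.6% lower over all genes. Of these 66 genes, 30 were copies of fast skeletal myosin heavy chain, whose family sum overlapped between the groups (log2 fold change 0.13). Of the 13 fast sarcomere families 11 were lower (51.6% over all families), and 3 of these at an unadjusted p under 0.05 (4.2% over all families). Their summed level was 248810, 239244 and 237857 CPM in the LA libraries and 195668, 235682 and 205472 CPM in the HA libraries. The sums did not overlap, and their log2 ratio was -0.19. This ratio depends on the scale. By total counts the ratio of the fast sarcomere was -0.05 and the sums overlapped. Parvalbumins, with a log2 ratio of -0.39, remained lower without overlap by total counts (-0.26). Their sums were 139429, 141460 and 138376 CPM in the LA libraries and 92398, 130173 and 96905 CPM in the HA libraries. The log2 ratio of these sums was -0.10 for HA2 over LA1 and -0.61 for HA1 over LA2. Of 5 tested parvalbumin families, 2 were higher and 3 lower (51.6% lower over all families). No family of these lists passed over all families.

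The 3 families of highest count did not share a direction, and none passed. Creatine kinase M-type was at 157214, 159434 and 157105 CPM in the LA libraries and at 121452, 159977 and 134883 CPM in the HA libraries, where HA2 overlapped the LA group. Its level depends on the scale. As a share of all counts it held 14.0%, 15.6% and 15.1% in the LA libraries and 13.9%, 14.8% and 14.5% in the HA libraries. Fast skeletal myosin heavy chain, summed over 38 genes, was at 56945, 72107 and 63911 CPM and at 82626, 58017 and 70595 CPM, with a log2 fold change of 0.13. It overlapped between the groups, although most fast sarcomere genes, many of them its own copies, were lower. Parvalbumin beta was at 104547, 101284 and 99633 CPM and at 72714, 97631 and 75975 CPM (log2 fold change -0.31). Its shares of all counts were 9.32%, 9.91% and 9.60% and 8.34%, 9.01% and 8.19%, still without overlap. Per gene length, parvalbumin beta led with a summed 111081 FPKM in the LA group and 98223 FPKM in the HA group, followed by creatine kinase M-type with 90565 and 87557 FPKM. Myosin-binding protein C, fast-type, which binds myosin in the thick filament, was at 6567, 7980 and 7131 CPM in the LA libraries and at 3766, 5152 and 4215 CPM in the HA libraries. Tropomyosin alpha-1 chain, which covers the myosin sites of actin, was at 22515, 23598 and 23252 CPM and at 11655, 20207 and 15694 CPM. In both families every HA library lay below every LA library, and neither passed (log2 fold changes -0.72 and -0.54, adjusted p = 0.589 and 0.694, edgeR).

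Proteins at the ends of the thin filament did not share a direction. Tropomodulin-1, which caps the pointed end of actin, was at 35.3, 46.2 and 41.1 CPM in the LA libraries and 20.5, 31.8 and 26.6 CPM in the HA libraries. Leiomodin-3, which promotes actin filament growth at that end, was at 57.0, 27.8 and 34.3 CPM and at 67.6, 65.0 and 67.6 CPM. Myopalladin, a Z-disc protein that binds nebulin and alpha-actinin, was at 65.9, 60.5 and 53.6 CPM and at 94.0, 68.3 and 86.9 CPM. In these families the groups did not overlap, and the adjusted p was 0.616, 0.616 and 0.632 (edgeR). Tropomodulin-4, the most abundant tropomodulin, overlapped, at 1124, 888 and 964 CPM and at 1008, 1050 and 1023 CPM. Of 30 tested M-band and Z-disc families, 13 were higher and 17 lower, with 4 higher and 1 lower at an unadjusted p under 0.05 (2.91% and 4.2% over all families). The most abundant, titin, the elastic filament of the sarcomere, was at 39488, 40500 and 38909 CPM and at 30405, 38067 and 33891 CPM.

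In some sarcomere families and in parvalbumin beta, the copies of smallest p or copy-share p had larger fold changes than the family sum. These copies were named for these values. The myosin-binding protein H copy LOC113041037 on chromosome 23 was at 579, 2033 and 1389 CPM in the LA libraries and at 18.8, 267 and 114 CPM in the HA libraries, without overlap. It held 24.4% of the family's tested CPM in the LA group and 2.35% in the HA group. The main copy, LOC113104563 on chromosome 6, was at 3343, 3336 and 3221 CPM and at 5418, 3589 and 4684 CPM, also without overlap and in the opposite direction, so that the family sum overlapped (log2 fold change 0.05). In parvalbumin beta, the copy LOC113052474 on chromosome 3 was at 532, 1631 and 1191 CPM in the LA libraries and 142, 431 and 209.9 CPM in the HA libraries (log2 fold change -2.10). Its neighbour on the same chromosome, LOC113052464, had a log2 fold change of -0.20. The fast-type myosin-binding protein C copy LOC113047034 on chromosome 28 was at 427, 1773 and 1203 CPM and at 157, 266 and 200.5 CPM, and its share of the family's tested CPM was 15.7% in the LA group and 4.74% in the HA group. Among the fast myosin heavy chains, the copies LOC113098046 (log2 fold change -1.72) and LOC113076616 (-1.39) were lower without overlap. LOC113098046 was at 29.1, 68.1 and 49.3 CPM and at 9.92, 18.6 and 16.0 CPM. The leading copy, LOC113048344 on chromosome 29, held 65.2% and 70.9% of the family's tested CPM and was at 30777, 52772 and 42268 CPM and at 63707, 35722 and 50363 CPM, with overlap. Reads of near-identical copies may be assigned to either, which makes a single copy less certain than its family sum.

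**Figure D4:**
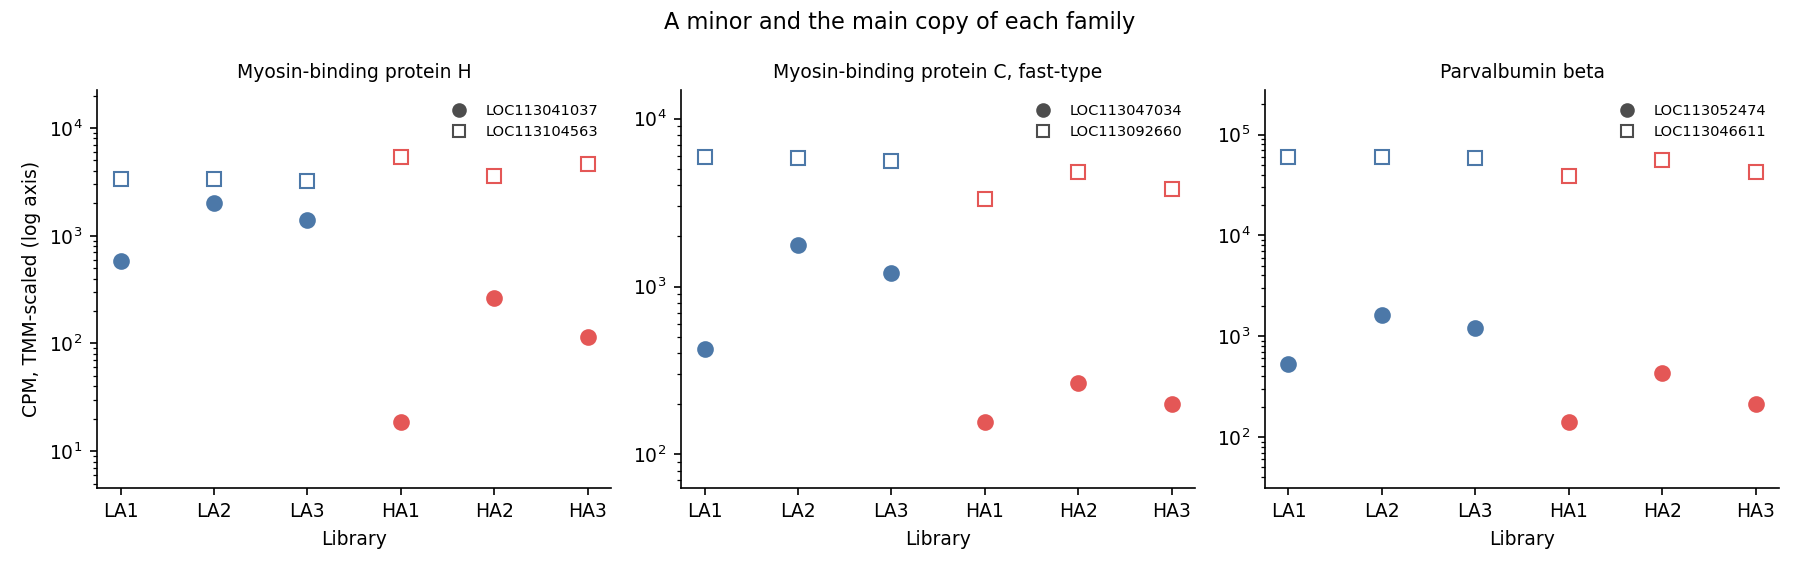
CPM (TMM-scaled, log axis) of a minor copy (filled) and the main copy (open) of 3 families in the LA (blue) and HA (red) libraries. The minor copy of myosin-binding protein H runs from 579 to 2033 CPM in the LA group and from 18.8 to 267 CPM in the HA group, while the main copy of the same family lies higher in every HA library.

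Whether the copies of a family moved apart was tested with edgeR for 6903 families of at least 2 tested copies. None passed at an adjusted p of 0.05 (0%), and 417 (6.04%) had an unadjusted p under 0.05. The smallest adjusted p was 0.0641, shared by 60S ribosomal protein L37, myosin-binding protein H and CASP8 and FADD-like apoptosis regulator, followed by parvalbumin beta and collagen alpha-1(XXVIII) with 0.069 (edgeR). In ribosomal protein L37, the copy LOC113039055 on chromosome 21 was at 3.12, 1.12 and 2.57 CPM in the LA libraries and at 50.5, 3.22 and 31.0 CPM in the HA libraries, and LOC113038937 on the same chromosome overlapped. Without LA1 118 families passed, without HA2 23, without HA1 1, with neither LA1 nor HA2 139, and with libraries 1 and 2 alone none. In the last setting, which by itself favours fewer calls, 52 families (0.74%) had an unadjusted p under 0.05 in edgeR.

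No gene family that handles the supplemented amino acids passed the test. Of 16 tested families of lysine and branched-chain amino acid breakdown, 15 had a lower mean level in the HA group (51.6% over all families). The median log2 fold change was -0.19, and 1 family was lower at an unadjusted p under 0.05 (4.2% over all families). The summed level was 669, 643 and 619 CPM in the LA libraries and 495, 604 and 515 CPM in the HA libraries, without overlap and with a log2 ratio of -0.26. By total counts the ratio was -0.12, again without overlap. The most abundant member, 2-oxoglutarate dehydrogenase, an enzyme of the citric acid cycle, was at 308, 289 and 281 CPM and at 201, 269 and 222 CPM. Alpha-aminoadipic semialdehyde synthase, alpha-aminoadipic semialdehyde dehydrogenase and glutaryl-CoA dehydrogenase, enzymes of lysine breakdown, overlapped between the groups. Their log2 fold changes were -0.23, -0.11 and -0.21. The families of the methionine cycle and transsulfuration went both ways, with 8 higher and 11 lower of 19 and none at an unadjusted p under 0.05. S-adenosylmethionine synthase, which makes the methyl donor from Met, was at 105, 89.7 and 90.3 CPM and at 50.6, 88.4 and 67.6 CPM. Methionine synthase, which remakes Met from homocysteine, was at 4.46, 2.69 and 4.00 CPM and at 3.59, 6.59 and 6.07 CPM, with overlap. Amino acid transporters were split evenly, with 11 families higher and 11 lower of 22. Among them the carrier sodium-coupled neutral amino acid transporter 2 was at 6.80, 14.7 and 15.1 CPM and at 8.64, 6.24 and 6.89 CPM. The neutral amino acid transporter B(0) was at 69.1, 21.99 and 38.2 CPM and at 80.2, 71.3 and 73.2 CPM. Cytosolic ribosomal proteins had 59 of 74 families lower (51.6% over all families, median log2 fold change -0.11), none at an unadjusted p under 0.05. Their sums overlapped. The log2 ratio of these sums was -0.11 by TMM and 0.02 by total counts. In the signalling list of mTOR and growth factors, 26 families were higher and 16 lower of 42, and DNA damage-inducible transcript 4 protein, an inhibitor of mTOR, was at 18.9, 16.1 and 17.2 CPM and at 29.9, 20.2 and 24.7 CPM.

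**Figure D5:**
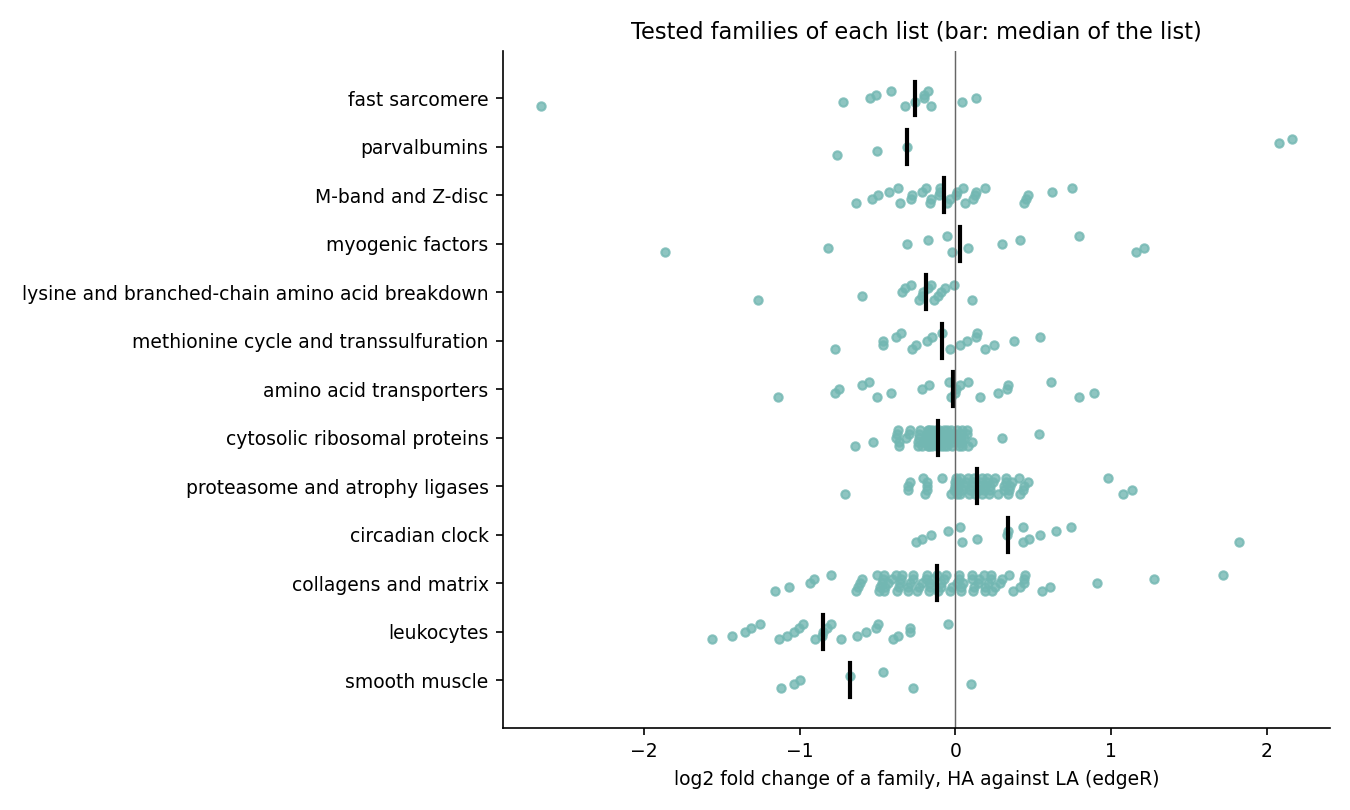
Log2 fold change of the tested families (points) of 13 lists, HA against LA, with a bar at the median of each list. All leukocyte families lie below 0 (median -0.85), the lysine and branched-chain list and the fast sarcomere lie mostly below 0, and the proteasome and clock lists mostly above.

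All 25 tested families of leukocyte markers had a lower mean level in the HA group (median log2 fold change -0.85), 13 of them at an unadjusted p under 0.05 (4.2% over all families), and 48 of 55 tested genes were lower (50.6% over all genes). Their summed level was 163, 479 and 369 CPM in the LA libraries and 203, 159 and 184 CPM in the HA libraries. LA1 overlapped the HA group, and between LA1 and HA2 the log2 ratio of the sums was -0.04. The leukocyte phosphatase PTPRC (CD45) was at 16.4, 25.8 and 22.4 CPM and at 11.4, 11.05 and 12.1 CPM, and both tested copies had negative fold changes. Plastin-2, an actin-bundling protein of leukocytes, was at 27.6, 57.1 and 49.7 CPM and at 25.7, 24.9 and 23.9 CPM. Coronin-1A, which binds actin in the same cells, was at 20.05, 82.1 and 57.7 CPM and at 20.6, 19.2 and 19.4 CPM, where LA1 lay within the HA group. The kinase SYK and subunit 1B of the actin-related protein 2/3 complex were not on this list. They were named for a small p without overlap among all families. SYK, which signals from immune receptors, was at 4.04, 11.6 and 7.86 CPM and at 3.10, 3.02 and 3.01 CPM. Subunit 1B was at 10.6, 16.4 and 13.5 CPM and at 7.18, 7.27 and 7.77 CPM. None of these families passed (adjusted p = 0.589 each, edgeR). In whole muscle, fewer cells of a type and less RNA per cell cannot be told apart.

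Of 7 families of smooth muscle markers 6 were lower, and the summed level was 59.2, 219.5 and 160 CPM in the LA libraries and 88.0, 65.2 and 77.6 CPM in the HA libraries, where LA1 was the lowest library of all. Its defining marker myosin-11 was at 19.4, 82.9 and 56.8 CPM and at 28.8, 19.8 and 24.8 CPM. Collagens and matrix proteins had 33 families higher and 47 lower of 80. Collagen alpha-6(VI), of the microfibrils around fibres, was at 60.8, 180 and 126 CPM and at 58.4, 56.3 and 49.2 CPM. By TMM these did not overlap, though LA1 and HA1 were close. Prolyl 3-hydroxylase 1, which modifies fibrillar collagen before its secretion, was at 4.46, 4.53 and 5.08 CPM and at 7.61, 9.33 and 9.52 CPM (log2 fold change 0.91). Collagen alpha-1(XIII), a membrane collagen of the neuromuscular junction, was at 9.21, 9.45 and 9.65 CPM and at 15.8, 14.0 and 13.3 CPM. In both, all HA libraries lay above all LA libraries, LA1 and HA2 included, and the adjusted p was 0.589 (edgeR). Nidogen-1, which links laminin and collagen in the basement membrane, was at 31.2, 41.4 and 41.4 CPM and at 21.5, 26.4 and 24.9 CPM. The part of the leukocyte and smooth muscle markers in these differences was not tested.

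No family of the stress or clock lists passed. Heat shock protein 30, a small chaperone, was at 65.3, 130 and 103 CPM in the LA libraries and at 48.7, 29.9 and 42.6 CPM in the HA libraries (log2 fold change -1.30). Its main copy, LOC113047293 on chromosome 28, and LOC113098751 had log2 fold changes of -1.18 and -2.74. The list of heat shock proteins and chaperones as a whole was not lower, with 44 families higher and 35 lower of 79. Early growth response protein 1, an immediate early factor, was at 38.6, 62.7 and 50.2 CPM and at 13.7, 34.4 and 22.5 CPM. Immediate early response gene 2 (LOC113045232) was at 3.33, 8.99 and 7.15 CPM and at 1.16, 2.20 and 1.82 CPM. Krueppel-like factor 4, of the same list, was higher without overlap (log2 fold change 0.44). Of 19 tested families of this list, 10 were higher and 9 lower. At an unadjusted p under 0.05, 1 was higher and 3 lower (2.91% and 4.2% over all families). NR4A1, the most abundant family of the immediate early list, was at 2712, 362 and 1257 CPM and at 1495, 2486 and 1845 CPM, so that it followed the likeness of LA1 and HA2. Of 16 circadian clock families 12 were higher (48.4% over all families, median log2 fold change 0.34), 3 of them at an unadjusted p under 0.05 (2.91% over all families). Their sum was 1074, 623 and 769.96 CPM in the LA libraries and 962, 1061 and 994 CPM in the HA libraries, with LA1 above every HA library by TMM (log2 ratio 0.29). By total counts the ratio was 0.45, and every HA library lay above every LA library. The clock repressor NR1D1 overlapped as a family, at 16.2, 2.43 and 9.29 CPM and at 11.9, 14.7 and 14.1 CPM. Its low copy LOC113046710 was at 2.90, 1.44 and 1.93 CPM and at 6.39, 5.01 and 6.33 CPM. The family of period 2 was at 53.9, 19.1 and 32.9 CPM and at 49.5, 70.7 and 57.4 CPM.

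Other families without overlap between the diets by TMM included tubulin alpha-1A, a subunit of microtubules. It was at 6.73, 5.51 and 5.29 CPM in the LA libraries and 11.9, 11.7 and 14.9 CPM in the HA libraries. Disabled homolog 2-interacting protein, which inactivates Ras, was at 11.1, 9.85 and 11.7 CPM and at 16.3, 20.8 and 18.5 CPM. The ubiquitin ligase RNF213-beta was at 5.03, 2.95 and 4.72 CPM and at 9.92, 8.64 and 8.27 CPM. GPCPD1, which splits glycerophosphocholine, was at 32.4, 12.01 and 17.9 CPM and at 71.3, 39.3 and 55.7 CPM, and all 3 of its copies had positive fold changes (0.66 to 2.28 on the log2 scale). Calcium/calmodulin-dependent protein kinase kinase 1, which activates AMP-activated protein kinase, was at 1.77, 11.9 and 8.01 CPM and at 0.974, 0.755 and 1.503 CPM. Ladderlectin was at 8.85, 83.4 and 57.1 CPM and at 7.12, 2.40 and 5.95 CPM. Relative to total counts, TMM raises LA1 (factor 0.891) and lowers HA1 (1.147) and HA3 (1.078). Groups as close as those of ladderlectin and of calcium/calmodulin-dependent protein kinase kinase 1 may therefore overlap by total counts. These families had an adjusted p of 0.589 (edgeR), and their log2 fold changes ran from -3.26 for ladderlectin to 1.42 for GPCPD1.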

How the data were processed

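Poly(A)-enriched RNA of muscle was sequenced with paired-end reads, with 3 libraries per diet. The authors deposited read counts and FPKM per gene, on gene models of the goldfish assembly ASM336829v1; FPKM equals the count divided by gene length and total count. Columns coded HA, HB and HC hold the LA, MA and HA libraries by the sample descriptions. DESeq2 is the only tool the labels name. Aligner, counter and strandedness, and how reads matching several genes were handled: not given in the sources used here.

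Counts were analysed with edgeR 4.0.16 in R 4.3.3. TMM factors were computed on genes kept by filterByExpr, and the quasi-likelihood fit used all 9 libraries with diet as its only term (6 residual degrees of freedom). Genes and families (counts summed over genes with the same product name) counted as called below 0.05 after Benjamini-Hochberg adjustment, and copy shares were tested with diffSpliceDGE. The simulated data used to test the scripts gave more false calls than the threshold allows for copy shares, so calls of that test are weak. Lists were described by counts, medians and sums, with no test. Overlap of genes and of families was judged on TMM-scaled CPM. Genes and families named are the 10 higher and 10 lower of smallest p without overlap (families with 2 or more tested copies), the 3 of smallest p and the most abundant of each of 37 lists, the 5 of smallest copy-share p and the 3 of highest count; other names were chosen after their values were seen. The family that passed the test is not reported here beyond its count. The members and lists were chosen with earlier results of these data known. Alternatives used DESeq2 1.42.0, limma 3.58.1 on log2(FPKM + 1), other filters, scalings, blocks (replicate number, or rank of the mapped share within a diet, taken from the supplementary mapping statistics) and family definitions, and left out each library. Mixtures of libraries 1 and 2 were fitted to library 3 by weighted non-negative least squares on genes with a summed count of at least 500. P-values measure the spread between these libraries, which may be technical in part, and 3 against 3 libraries allow no exact two-sided permutation p below 0.1.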

Additional observations from a re-analysis of the deposited data

How the results depend on the processing

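Over the alternatives run, no gene or family followed through them changed direction, except fast skeletal myosin heavy chain, whose log2 fold change of 0.13 was -0.0045 without HA1. The number of genes that passed (0) was the same with RLE size factors, a minimum of 10 counts per library, the replicate block, the LA and HA libraries only, libraries 1 and 2 only and limma on FPKM. It was 119 with no filter on low counts, 4 with the mapped-share rank as a block, 219 with neither LA1 nor HA2, 407 with neither of them and no MA library, 567 without the library of lowest mapped share of each diet (added after seeing the data) and 49 with DESeq2. Leaving out single libraries gave 0 to 175 genes. Settings without both LA1 and HA2 remove the most alike pair of different diets, which by itself favours more calls. Libraries 1 and 2 only keeps that pair among fewer libraries, which by itself favours fewer calls. The number of families (1) was 60, 10, 233, 350, 469 and 32 under the same settings, 0 with the LA and HA libraries only, with libraries 1 and 2 only, with limma on FPKM or with families by KEGG orthology, and 0 to 212 when single libraries were left out. It stayed at 1 with TMM factors from the family table and with families of 2 or more tested copies, both added after seeing the data. The number of families with a changed copy share (0) was 11 with no filter, 2 with at least 10 counts in every library, 139 with neither LA1 nor HA2, 226 with no MA library besides, 250 without the lowest mapped shares, 6 by KEGG orthology and 0 to 118 when single libraries were left out.

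Replicate numbers did not pair the libraries, with residual correlations of -0.60 for LA1 and HA1, -0.59 for LA2 and HA2 and 0.11 for LA3 and HA3. The residual correlation was 0.61 for LA1 and HA2 and 0.60 for LA2 and HA1, which also share a rank of mapped share within their diets, the block that gave 4 genes and 10 families. With the replicate block, 0 genes, 1 family and 6 copy shares passed. The family was dexamethasone-induced Ras-related protein 1, named after its values were seen.

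The log2 ratio of the fast sarcomere sum (-0.19) was -0.046 by total counts and -0.30 without the copy of highest CPM, and that of lysine and branched-chain breakdown (-0.26) was -0.12 by total counts. Leaving out single libraries gave -0.27 to -0.13 for the fast sarcomere, -0.56 to -0.30 for parvalbumins, -1.22 to -0.55 for leukocytes and -1.30 to -0.51 for smooth muscle. Limits are the 3 libraries per diet, the place of library 3 between the others, the likeness of LA1 and HA2, and reads shared between gene copies. The cause of these was not tested.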

Other observations

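Some further values of the HA and LA libraries are given here. Parathyroid hormone, named after its values were seen, was at least 2-fold lower in the HA library of both pairs of libraries (log2 ratios -1.15 for HA2 over LA1 and -4.06 for HA1 over LA2). The other cell marker lists overlapped between the diets by TMM, except liver markers, whose sums of 28.8, 55.0 and 43.0 CPM in the LA libraries lay above the 26.7, 25.2 and 27.3 CPM of the HA libraries and overlapped by total counts. Markers of erythrocytes summed to 728 to 793 CPM in the LA libraries and 709 to 1209.5 CPM in the HA libraries, and those of nerve and Schwann cells to 293 to 337 CPM and 312 to 367 CPM.

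Within fat metabolism, lipoprotein lipase was at 17.3, 23.7 and 23.9 CPM in the LA libraries and 49.7, 21.0 and 37.4 CPM in the HA libraries. Adiponectin, a hormone of fat cells, was at 9.49, 2.23 and 5.58 CPM and at 12.1, 11.9 and 14.0 CPM. The list of adipocyte markers did not share its direction. Of 5 tested families, 3 were higher and 2 lower, with 1 higher and 1 lower at an unadjusted p under 0.05. The lower one, complement factor D, was at 7.58, 14.0 and 13.5 CPM and at 8.46, 6.79 and 7.39 CPM, with overlap. Lipoprotein lipase, adiponectin and complement factor D did not pass. Oxidative phosphorylation had 50 families higher and 32 lower of 82 (48.4% higher over all families). At an unadjusted p under 0.05, 2 were higher and 0 lower (2.91% and 4.2% over all families). Cytochrome b-c1 complex subunit 8, of smallest p in this list, was at 61.7, 46.7 and 50.7 CPM and at 79.3, 65.0 and 75.4 CPM without overlap.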
